A study of Mus musculus with 3 samples.

Results

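The 8 genes described here encode the oligoadenylate synthetases (OAS) and their relatives in the mouse: Oas1a, Oas1b, Oas1c, Oas1g, Oas2, Oas3, Oasl1 and Oasl2. They were chosen by gene symbol, with earlier results of these data known, and are 8 of the 55536 annotated genes in the deposited gene tables. All 3 libraries belong to 1 group of bone-marrow-derived macrophages from C57BL/6J mice. The cells were pre-treated with Lipid A at 100 ng/ml for 12 hours, kept without it for 12 hours, and treated again at 100 ng/ml for 50 minutes. RNA of the chromatin fraction was depleted of ribosomal RNA and sequenced. Every library carries the same pre-treatment, and no untreated or singly treated group was analysed here, so the values are levels and not responses to Lipid A. The labels name the same donor for all libraries and do not say whether they came from separate cultures, so the spread between them may be technical. Age and sex are labelled as not collected.

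Oligoadenylate synthetases are interferon-induced enzymes that sense double-stranded RNA. On binding it they join ATP into short oligoadenylates with an unusual linkage, known as 2-5A, which act as a second messenger of the antiviral response. In the mouse the single human OAS1 gene corresponds to a series of tandem copies, of which Oas1a and Oas1g encode active synthetases, and Oas2 and Oas3 encode larger forms with repeated synthetase units. Oasl1 and Oasl2 carry ubiquitin-like domains after the synthetase-like part, and Oasl1 has no synthetase activity and is known as a brake on translation of Irf7 mRNA. Oas1b is the flavivirus resistance gene, which carries a premature stop codon in common laboratory strains, and the annotation lists it as a polymorphic pseudogene. The other 7 genes are annotated as protein-coding.

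The promoters of these genes are shown first because the family is a classical interferon target and because near-identical copies can be seen in them by eye. RefSeq promoter windows on GRCm38.p6, from 250 bases before to 50 bases after the start, matched 6 of the 8 genes: Oas1a, Oas1c, Oas1g, Oas3, Oasl1 and Oasl2. The stretches below are printed 5′ to 3′ in the direction of transcription of the named gene. Each ends at the base before the start site, and that of Oas1c spans the whole gap between the annotated starts of Oas1c and Oas1b. Capitals mark matches to GAAANNGAAA on either strand, a core of the interferon-stimulated response element, and overlapping matches run together. The Oas1a stretch is chr5:120907526-120907625 (minus strand), Oas1g chr5:120887614-120887713 (minus), Oas1c chr5:120812515-120812634 (minus), Oas3 chr5:120777660-120777759 (minus) and Oasl1 chr5:114923040-114923239 (plus).
Oas1a: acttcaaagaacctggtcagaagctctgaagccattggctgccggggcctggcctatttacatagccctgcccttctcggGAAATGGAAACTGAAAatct
Oas1g: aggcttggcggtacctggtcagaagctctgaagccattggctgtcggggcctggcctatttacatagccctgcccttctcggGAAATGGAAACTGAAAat
Oas1c: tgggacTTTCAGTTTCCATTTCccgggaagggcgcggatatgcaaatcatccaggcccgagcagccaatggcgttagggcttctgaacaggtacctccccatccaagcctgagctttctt
Oas3: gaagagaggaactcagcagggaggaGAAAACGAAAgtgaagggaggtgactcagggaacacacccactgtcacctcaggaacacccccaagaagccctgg
Oasl1: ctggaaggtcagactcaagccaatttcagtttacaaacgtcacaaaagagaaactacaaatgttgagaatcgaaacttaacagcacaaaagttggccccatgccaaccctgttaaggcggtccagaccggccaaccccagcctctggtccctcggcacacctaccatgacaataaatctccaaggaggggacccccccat

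Oas1a and Oas1g both had 2 overlapping matches next to the start, with first bases at -20 and -14 in Oas1a and at -18 and -12 in Oas1g. Over the 100 bases before their starts the copies were identical at 91 of 98 aligned bases (92.9%), and over 250 bases at 86.9%. Oas1c had 2 overlapping matches on the other strand, at -114 and -108, which in the printed stretch lie at the Oas1b end of the gap. Oas3 had 1 match, at -75. The windows of Oasl1 and Oasl2 held no exact match to these letters, and the Oasl1 stretch is printed as an example without one. No mismatch was allowed, so a near match such as tttcagttta in the Oasl1 stretch was not counted. Of all 32851 promoter windows of this length, 3.44% held at least 1 match. A match is a description of letters and was not tested as a binding site.

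All 8 genes were detected, that is, reached a TPM of 1 in each library (TPM is a level corrected for transcript length and scaled to the same total in each library), against 39.2% of 22028 protein-coding genes and 20.2% of all annotated genes. The 8 do not include the Oas1 copies Oas1d, Oas1e and Oas1f, which were not detected, or Oas1h, which was. The median of the 8 genes was 6.92 on the log2(TPM + 1) scale, against 0.45 for all protein-coding genes and 3.45 for detected ones. Levels ranged over more than 2 orders of magnitude, from Oasl2 at 731 ± 148 TPM (SD, n = 3) to Oas1c at 2.73 ± 0.625 TPM. In bulk RNA, fewer expressing cells and less RNA per cell cannot be told apart.

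**Figure D1:**
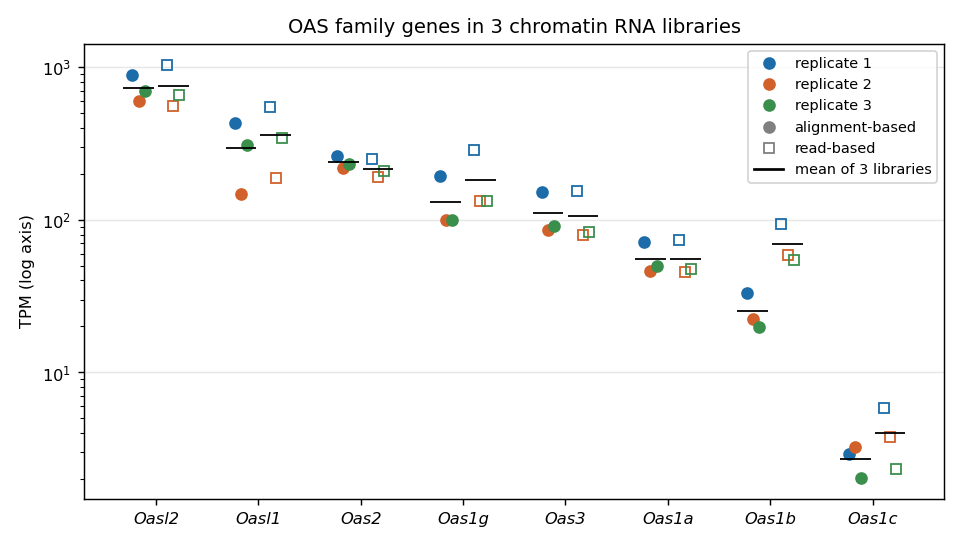
Level of each gene in TPM (log axis), with filled circles for the alignment-based and open squares for the read-based value of each library, and a line at the mean of the 3 libraries. By alignment the means run from 2.73 TPM for Oas1c to 731 TPM for Oasl2, and Oas1b is the gene whose squares lie farthest above its circles.

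Among the larger synthetases, Oas2 stood at 260, 220 and 232 TPM in replicates 1, 2 and 3 (237 ± 20.9, SD, n = 3), backed by 12240 to 13495 expected counts. Oas3, the largest synthetase of the family, stood at 153, 86.2 and 90.8 TPM (110 ± 37.3). The libraries of Oas2 lay close together, while replicate 1 of Oas3, summed over its transcripts, lay well above the others. The longest protein-coding transcript, Oas3-201, was more even, at 56.1, 48.5 and 52.5 TPM. The shorter Oas3-202, at 39.2, 13.0 and 18.3 TPM, and the retained-intron Oas3-203 and Oas3-204 differed more. Of the small synthetases, Oas1g had 194, 99.3 and 99.5 TPM (131 ± 54.9), and Oas1a had 71.0, 46.0 and 49.5 TPM (55.5 ± 13.6). Over all its transcript types, Oas1g was above Oas1a in every library, at 2.30 ± 0.384 times its level, and their libraries did not overlap.

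The annotated pseudogene Oas1b reached 33.2, 22.4 and 19.8 TPM (25.1 ± 7.14), on 389 to 603 expected counts. Its head-to-head neighbour Oas1c, an Oas1 copy on the opposite strand, had 2.93, 3.23 and 2.03 TPM, on 68 to 94.9 counts. With 120 bases between their starts, Oas1b stood at 9.33 ± 2.23 times the level of Oas1c (SD of the ratio, n = 3). In the read-based tables the ratio was 18.3 ± 4.43. Oas1c was the single gene of the 8 whose highest library was not replicate 1.

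Summed over all annotated transcript types, the OAS-like genes had the highest mean TPM. Oasl2, which encodes the OAS-like protein that retains synthetase activity, had 893, 602 and 699 TPM, on 13844 to 18504 expected counts. Oasl1 had 431, 146 and 310 TPM (296 ± 143), on 2715 to 5942 counts. Its replicate 1 was the highest and replicate 2 the lowest, and relative to the mean the 3 libraries were farther apart than those of any other gene of the 8. Oasl2 held 46.5% ± 2.69 and Oasl1 17.9% ± 5.16 of the summed TPM of the 8 genes, which left 35.6% ± 3.06 to the 6 genes of the Oas1, Oas2 and Oas3 cluster. This order turned when only protein-coding transcripts were counted: Oas2 led at 227 TPM, followed by Oasl1 at 89.3, Oas3 at 75.9 and Oasl2 at 61.3 TPM, and the cluster held 72.5%. By CPM (counts scaled by the library total, not by length) the cluster held 52.2%, and Oas2 had more counts than Oasl1 in each library.

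In descending order of mean TPM the genes ran Oasl2, Oasl1, Oas2, Oas1g, Oas3, Oas1a, Oas1b and Oas1c. The libraries of 5 of the 7 neighbouring pairs did not overlap. Oasl1 and Oas2 overlapped, with Oasl1 below Oas2 in replicate 2, and Oas1g and Oas3 overlapped although Oas1g was the higher in each library. Over all 28 pairs, 24 did not overlap, beside 78.7% of all pairs of detected protein-coding genes. An exact sign-flip permutation test over the 3 libraries gave a two-sided p of 0.25 (adjusted over the 7 pairs, 0.292) for each neighbouring pair but Oasl1 and Oas2, whose p was 0.75. With 3 libraries 0.25 is the smallest p this test can give, so the order stands as a description. Of these same 7 pairs, 3 did not overlap in the read-based tables, Oasl2 and Oasl1, Oas3 and Oas1a, and Oas1b and Oas1c. With the genes sorted anew by their read-based means, which put Oas1b above Oas1a, 2 of 7 neighbouring pairs did not overlap.

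Oas1a and Oas1g share much of their transcribed sequence, so both quantifications were set side by side. Their coding sequences were identical at 1065 of 1101 bases (96.7%), while every other pair of the 8 genes shared 64.5% to 81.1% of aligned bases. Of the 31-base words in the Oas1a transcript, 68.7% also occurred in Oas1g, and 54.6% of those in Oas1g transcripts occurred in Oas1a. At 100 bases the shares were still 40.9% for Oas1a and 31.3% for Oas1g. Oas1c shared 25.2% of its 31-base words with some other gene and Oas1b 6.70%, while Oas2 shared none.

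The 2 quantifications gave nearly the same level of Oas1a: the read-based tables had 73.6, 45.2 and 47.2 TPM. For Oas1g the read-based values were 285, 132 and 134 TPM, so the ratio of Oas1g to Oas1a was 3.20 ± 0.576 in the read-based tables, beside 2.30 in the alignment-based ones. The split of reads between these copies is an estimate in both, and Oas1g, summed over its transcripts, was the higher in both. With protein-coding transcripts only the order turned, at a mean of 25.0 TPM for Oas1g and 55.5 TPM for Oas1a by alignment. The annotation lists 1 transcript for Oas1a, a protein-coding one, and 3 for Oas1g, of which 1 is protein-coding. Both orders therefore depend on unlike annotation of the copies.

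A 2-fold or larger difference between the quantifications in every library was found for 1 of the 8 genes, Oas1b, beside 9.28% of protein-coding genes (those averaging 1 TPM or more) that were higher in the read-based tables and 0.0212% that were lower. Oas1b had 93.6, 58.7 and 54.8 TPM there, a mean log2(TPM + 1) difference of 1.42. Most of that difference lay in Oas1b-202, a processed transcript of 558 bases without a coding sequence, which had 8.54, 7.60 and 6.22 TPM by alignment and 54.6, 37.7 and 34.2 TPM from the reads. Oas1b-203, annotated as the polymorphic pseudogene transcript, differed less, at 24.7, 14.8 and 13.5 TPM by alignment against 20.6 to 38.5 TPM from the reads. Oas1b-201, the transcript annotated as protein-coding, was listed at 0 TPM in each alignment-based table. In the read-based tables Oas1b, at a mean of 69.0 TPM, stood above Oas1a.

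Oasl1 showed a like split within 1 transcript. The processed transcript Oasl1-203 had 3.02, 0.79 and 0.29 TPM by alignment and 103, 50.4 and 64.1 TPM from the reads. For the whole gene the read-based values were 546, 188 and 341 TPM, higher than by alignment in each library.

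Chromatin-bound RNA holds unfinished and unspliced transcripts, and the annotation of these genes includes retained-intron transcripts and transcripts marked for nonsense-mediated decay. Reads in introns enter the tables only where such a transcript is annotated. In the alignment-based tables, protein-coding transcripts held 8.23% ± 1.15 of the TPM of Oasl2 (SD, n = 3), against 64.5% ± 3.78 in retained-intron transcripts and 27.3% ± 3.48 in a decay transcript. Most Oasl2 signal therefore lay outside its protein-coding transcripts, of which the longest, Oasl2-201, had 79.2, 40.3 and 51.2 TPM. Over 9450 protein-coding genes averaging 1 TPM or more, retained-intron transcripts held a median of 25.9% of the TPM. Over the 6106 of them with such a transcript annotated, the median was 43.9%.

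For Oasl1 the protein-coding share was 31.3% ± 3.58, and the retained-intron transcript Oasl1-204 alone had 304, 94.2 and 213 TPM. As a share of expected counts, which weight long transcripts more, the Oasl1 majority turned: 60.7% ± 5.19 was protein-coding and 38.9% ± 4.91 retained-intron. The protein-coding Oasl1-202 had 119, 50.8 and 90.2 TPM, in the same order of libraries. Oas1g divided into 18.4% ± 2.56 protein-coding, 33.3% ± 4.04 retained-intron and 48.4% ± 6.45 decay transcripts. Oas3 was 70.6% ± 7.91 protein-coding, and Oas2 95.8% ± 0.968. Oas1a has 1 annotated transcript, which is protein-coding, so its 100% follows from the annotation. None of the Oas1b TPM lay in a protein-coding transcript. The median over the 8 genes was 51.0%, against 56.7% over the 9450 protein-coding genes averaging 1 TPM or more. It is the midpoint between Oasl1 and Oas3, and the 8 genes include Oas1b, which is not among the 9450. For the 8 genes the shares were averaged over libraries, and for the 9450 they were taken from mean TPM. These shares depend on which introns the annotation lists and on transcript length: as a share of expected counts the median was 69.8%.

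**Figure D2:**
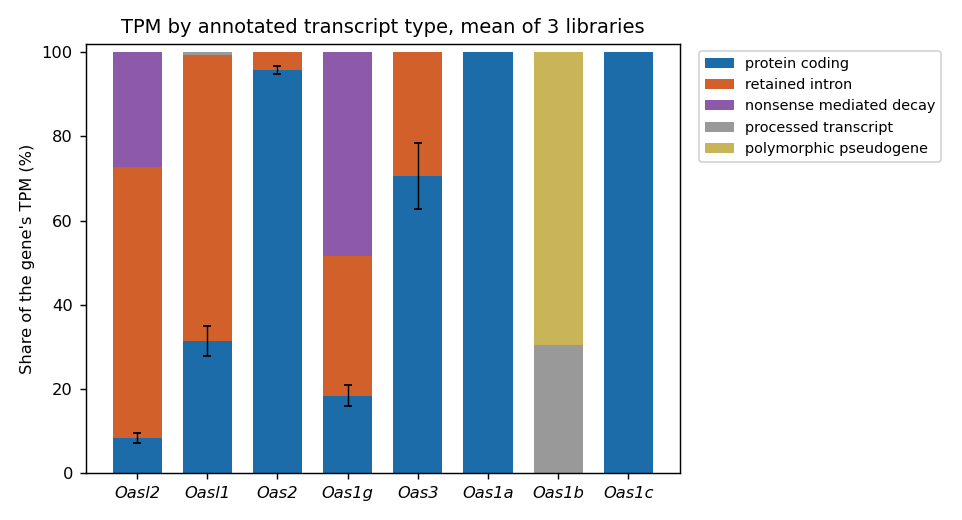
Share of the TPM of each OAS gene by annotated transcript type (percent, stacked bars, mean of 3 libraries), with an error bar of 1 SD on the protein-coding segment where it is neither 0 nor the whole bar. Oasl2, Oas1g and Oasl1 lie mostly in retained-intron and decay transcripts, whereas Oas2 is 95.8% protein-coding.

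All 8 genes lie on chromosome 5 (mm10, GENCODE M21). The Oas1, Oas2 and Oas3 cluster spans 177189 bp, at chr5:120730333-120907521, and the Oasl pair spans 40980 bp, at chr5:114896936-114937915, with 5792417 bp between them. From left to right the cluster holds Oas2 (chr5:120730333-120749853), Oas3 (chr5:120753098-120777661), Oas1c (chr5:120800194-120812514), Oas1b (chr5:120812635-120824163), Oas1g (chr5:120876142-120887613) and Oas1a (chr5:120896256-120907521). Oas1b is the single one of these on the plus strand. Oasl2 (chr5:114896936-114912234) and Oasl1 (chr5:114923240-114937915) follow each other on the plus strand, 11005 bases apart. Levels within the cluster were unequal, with Oas2 beside Oas3 and Oas1g beside Oas1a as the higher genes at either end. Between the detected members lie other Oas1 copies: Oas1e had 0.36, 0 and 0.11 TPM, Oas1h had 7.65, 4.18 and 4.01 TPM, and Oas1f had 0 counts in each alignment-based table. For Oas1f, 3 counts would have given 0.194 to 0.234 TPM, which is the level that counts of 0 allow.

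The genes flanking the cluster and the pair were low or at 0. Dtx1, 18405 bp from the cluster, and Oas1d, 7014 bp from it on the other side, had 0 counts in every alignment-based table. 4930519G04Rik and 2210016L21Rik, which flank the Oasl pair, had means of 0.0267 and 2.09 TPM. Inside the Oas2 gene the annotation also lists Gm43068 on the opposite strand, an unclassified transcript at 21.4, 15.7 and 12.5 TPM. The antisense gene Gm13822 overlaps the start of Oasl1 by 38 bp and had 9.07, 2.06 and 4.29 TPM, on 22, 4 and 8 counts. The use of strand in counting was not given in the sources used here, so reads in these overlaps cannot be told apart.

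**Figure D3:**
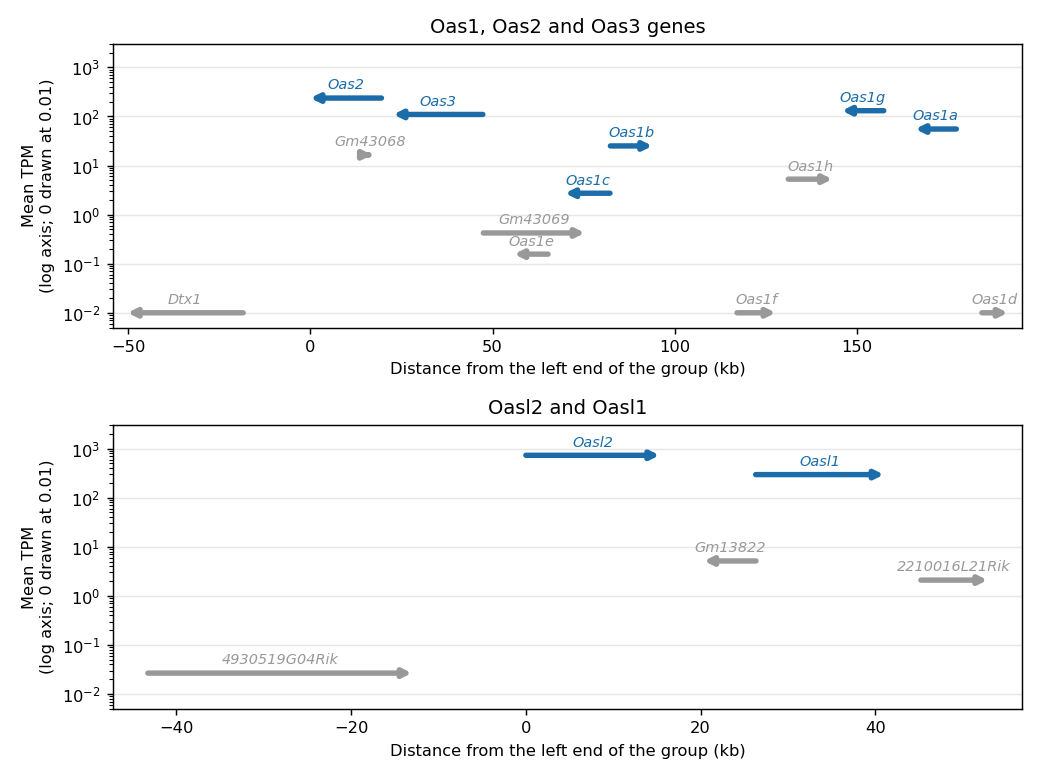
Mean TPM over the 3 libraries (log axis, 0 drawn at 0.01) against distance from the left end of the Oas1, Oas2 and Oas3 cluster (top) and of the Oasl pair (bottom), in kb. Each arrow spans a gene and points along its strand, in blue for the 8 OAS genes and grey for others. High genes such as Oas2 (237 TPM) and Oas1g (131 TPM) lie among copies at or near 0, such as Oas1e and Oas1f.

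The libraries did not carry the family at equal levels. The summed TPM of the 8 genes was 2039, 1225 and 1502 in replicates 1, 2 and 3. Replicate 1 was the highest library for 7 of the 8 genes, beside 21.9% of 9450 protein-coding genes averaging 1 TPM or more. On the log2(TPM + 1) scale replicate 1 minus the mean of the other libraries had a median of 0.60 over the 8 genes and -0.18 over those protein-coding genes, a gap of 0.78. The difference ran from 0.13 for Oas1c and 0.21 for Oas2 to 0.96 for Oas1g and 1.01 for Oasl1. Genes of 1 cluster in the same libraries are not independent of each other.

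Other measures differed between the same libraries. Replicate 1 was made from 1 µg of RNA, replicate 2 from 250 ng and replicate 3 from 500 ng. It had the fewest expected counts, 13897176 against 19597343 and 19348626. The noncoding Gm26917 took 10.8% of its counts, against 18.2% and 20.1%. Counts were also scaled by median-of-ratios size factors (the median over protein-coding genes of the count relative to the gene's geometric mean). Replicate 1 was then highest for 8 of the 8 genes. The share over all protein-coding genes was not computed for this scaling, so this count has no background beside it. The 21.9% given above is for TPM and does not apply to it. The part of starting amount, depth and Gm26917 in the pattern was not tested.

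The coefficient of variation over the 3 libraries was 48.3% for Oasl1, above that of 96.5% of 312 genes of like level, and 41.9% for Oas1g. It was 8.81% for Oas2, above that of 16.2% of genes of like level. Oasl1 was thus among the more variable and Oas2 among the less variable genes of their level, with n = 3 behind each value.

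**Figure D4:**
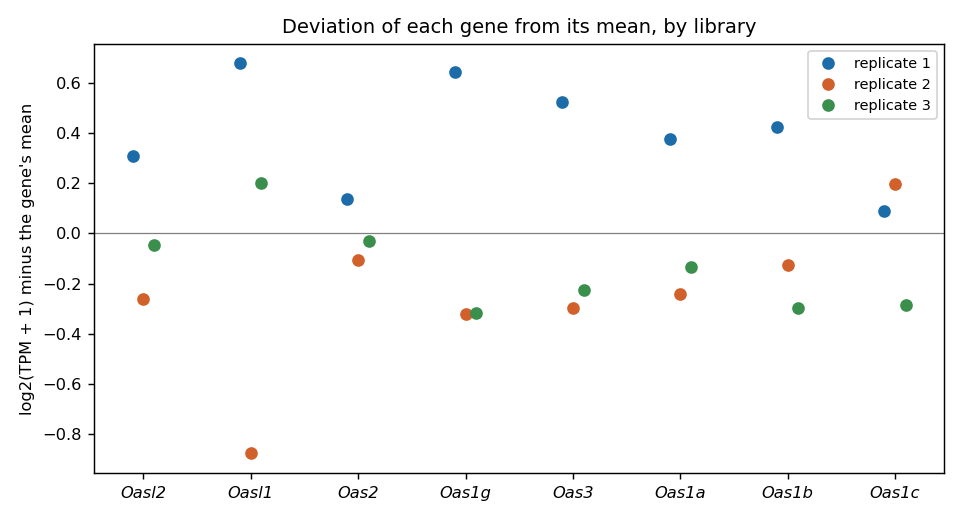
Deviation of log2(TPM + 1) from the gene's own mean in each library, for the 8 genes, with 1 point per library. Replicate 1 is highest for 7 of the 8 OAS genes, most of all for Oasl1 and Oas1g.

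The mean centred profile of the 8 genes over the 3 libraries was 0.40, -0.25 and -0.14. The 5 other protein-coding genes nearest to it, by root mean square distance on the log2 scale, were Gm12216, Slfn8, Spred1, Aff4 and Dnaja2. Slfn8, of the Schlafen family, had 323, 209 and 227 TPM. With 3 libraries, 162 of 4310 candidate genes lay within 0.1 of the profile, and so did 3 of the 8 genes themselves, Oas1a, Oasl2 and Oas3.

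In the list of 6 genes made of other genes linked to 2-5A and further Oas1 copies, 3 were detected, with a median of 1.69 TPM. Abce1, known for ribosome recycling, had 12.2 ± 3.93 TPM, and Pde12, which degrades 2-5A, had 3.23 ± 0.230 TPM. Oas1d, Oas1e and Oas1f were not detected and lower this median. The list leaves out the 8 genes described here, so its median is not a level of the 2-5A pathway. All 10 genes of the list of double-stranded RNA sensors and their control were detected, with a median of 125 TPM, from Mavs at 2.44 ± 0.971 TPM to Ddx58, which encodes RIG-I, at 243 ± 77.8 TPM. Replicate 1 was highest for 8 of these 10. Ifih1, which encodes MDA5, had 299, 121 and 199 TPM.

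Of 13 genes of interferon signalling, 12 were detected, with a median of 74.2 TPM. Irf1 was the highest, at 781 ± 147 TPM. Ifnb1, the interferon-beta gene, was the one not detected in every library, at 9.51, 0.56 and 4.21 TPM. Irf7, whose translation Oasl1 restrains, had 340 ± 101 TPM. Replicate 1 was highest for 7 of the 13.

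**Figure D5:**
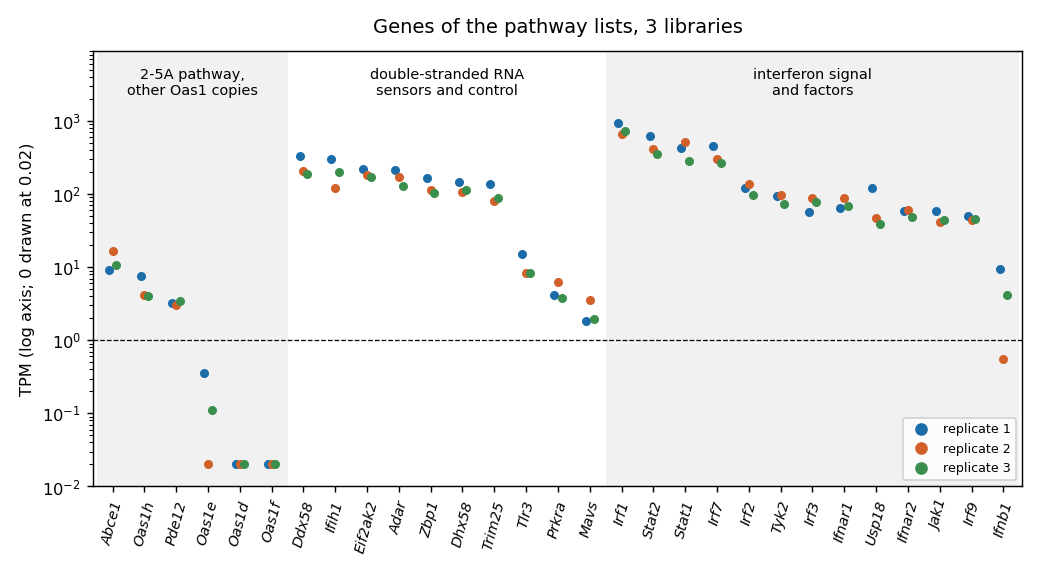
TPM (log axis, 0 drawn at 0.02) of each gene of the 3 pathway lists, with 1 point per library and a dashed line at 1 TPM. The double-stranded RNA sensors have a median of 125 TPM and the interferon list 74.2 TPM. The list of other 2-5A genes and Oas1 copies, at 1.69 TPM, leaves out the 8 OAS genes. It holds 3 genes that were not detected.

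The labelled cell type was checked against markers. All 7 macrophage markers were detected, with summed levels of 931, 1155 and 864 TPM. None of 5 neutrophil, 5 dendritic, 3 T-cell, 3 B-cell or 3 stromal markers was detected in every library, with summed levels per list between 0 and 2.64 TPM by alignment. Cd3e, Cd3d and Cd3g had 0 counts by alignment, whereas the read-based tables put Cd3d at 12.5, 15.6 and 18.8 TPM. The other markers of these lists that reached 1 TPM in each read-based table were Pecam1, at 3.24, 9.51 and 11.0 TPM, and Zbtb46, at 1.40, 1.56 and 1.26 TPM. Macrophage markers were highest in replicate 2 in sum, unlike the OAS genes, but 3 of the 7 were highest in replicate 1.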

How the data were processed

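Total RNA-seq of chromatin-fraction RNA was analysed in 3 libraries of 1 group. Per the file headers, each library has alignment-based gene and transcript tables and a read-based transcript table on mm10 with GENCODE M21. Names of programs were not given in the sources used here. Expected counts deposited by the authors (estimated counts in the read-based tables) need not be whole, and the deposited TPM values are corrected for effective length. The deposited bounds of the posterior TPM, a non-negative signal, have no stated level and are not printed.

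Gene TPM by alignment was the main measure. Read-based transcripts were summed per gene. All gene identifiers matched GENCODE M21, and 86 genes had no read-based transcript. Differences used log2(TPM + 1). Detected means 1 TPM or more in each of the 3 libraries. The order of neighbouring genes by level was tested over the 3 libraries by an exact two-sided sign-flip permutation test with Benjamini-Hochberg adjustment. A level at 0 counts was bounded by 3 counts, for counting error only. Scripts (Python 3.11.15, pandas 2.3.3, numpy 2.4.6, scipy 1.17.1, Biopython 1.88) were tested on simulated data.

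The genes named are the 8 OAS genes, the extremes and undetected genes of each list, the nearest flanking genes and the 5 genes of most like profile among those averaging 10 TPM or more. 1 gene of the lists is not reported here. The genes and lists were chosen with earlier results of these data known. Depth was 13897176 to 19597343 expected counts by alignment and 20743071 to 34961536 estimated counts in the read-based tables. Alternatives were the read-based tables, counts scaled by library total, other thresholds and pseudocounts, protein-coding transcripts only, rescaled TPM and each library left out.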

Additional observations from a re-analysis of the deposited data

How the results depend on the processing

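No paired analysis was possible because there is only 1 group. Leaving out each library in turn kept the median level of the 8 genes between 6.57 and 7.08 (log2), the count of non-overlapping neighbours at 5 to 6 and the cluster share at 34.0% to 37.0%. The median level (6.92) was 7.61 with CPM (counts scaled by the library total, not by length), 8.71 with TPM rescaled over protein-coding genes and 5.89 with protein-coding transcripts only. Non-overlapping neighbours numbered 5 of 7, against 2 with the read-based tables and 3 with CPM, each sorted anew so that the pairs differ. The cluster share (35.6%) was 52.2% with CPM and 72.5% with protein-coding transcripts only. With CPM 0 of the 8 genes, in place of 1, differed 2-fold between the quantifications. The median protein-coding share (51.0%) was 69.8% of expected counts. The cause of these shifts was not tested. With the read-based tables the mean of Oas1b went from 25.1 to 69.0 TPM. With protein-coding transcripts only, Oasl2 went from 731 to 61.3 TPM, Oasl1 from 296 to 89.3, Oas1g from 131 to 25.0 and Oas1b to 0. The settings for the count of genes highest in replicate 1 were chosen after seeing the data. Oas1c had the fewest counts of the 8 genes (68 to 94.9), and so the largest relative counting error.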
